A study of Arabidopsis thaliana with 12 samples.

Results

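Transcript levels of 2 histone H3 genes and 4 kinesin genes were followed in wild-type Arabidopsis thaliana between plants under PSII light with DCMU and plants under PSI light. The genes are AT1G09200 and AT1G13370 (histone H3) and AT4G14330, AT3G44050, AT2G37420 and AT3G20150 (kinesins). They were taken by locus from the array features that the platform's annotation pairs with exactly 1 gene, so 6 of 692 such features, among 3439 features in all, are described. The 6 PSII_DCMU samples are total RNA of ecotype C24 plants that were grown in light exciting mainly photosystem II and treated with the herbicide DCMU, which blocks electron transfer from photosystem II to plastoquinone. The 6 PSI samples are total RNA of C24 plants of the same wild type grown in light exciting mainly photosystem I, with no DCMU. Light and DCMU differ together between the groups and cannot be told apart. No tissue, plant age or duration was given with the samples.

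Histone H3 is a core protein of the nucleosome, around which DNA is wrapped. Plants carry several H3 genes, some of which are transcribed mainly while DNA is replicated, when new chromatin has to be packed. Kinesins are motor proteins that move along microtubules using ATP, and several plant kinesins act in the mitotic spindle or in the phragmoplast, the microtubule array that builds the new cell wall between daughter cells. Both gene families are therefore often read together with cell division, although some of their members also act in cells that no longer divide.

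Each feature had 1 intensity per sample, on a linear scale from 0 to 100 whose unit is unknown. Median intensities per sample were 0.632 to 0.687 in the PSII_DCMU group and 0.542 to 0.584 in the PSI group. Samples 1 and 2, 3 and 4, and 5 and 6 of a group deviated together and were averaged on the log2 scale to replicates 1, 2 and 3, which leaves n = 3 per group. Whether samples came from separate plants was not given, so the spread behind the p-values is that between the samples at hand and may be purely technical. Over the whole table, 48.5% of features passed an adjusted p of 0.05 (limma, Benjamini-Hochberg over all features), 26.4% upward and 22.0% downward in the PSII_DCMU group. A call on a single feature has to be read against that share.

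Of the 6 genes, 5 passed the test against the table's 48.5%, and 2 of them, AT1G09200 and AT4G14330, kept their calls under all 15 alternatives tried. Both histone H3 genes were lower under PSII light with DCMU, where 22.0% of all features were lower. Of the 4 kinesin genes, 3 were higher, against 26.4% of all features, and AT3G20150 did not pass. Averaged replicates of the groups did not overlap for the same count, 5 of 6 genes, and for 60.7% of all features. The median log2 change was -0.86 for the H3 genes and 0.59 for the kinesin genes, beside 0.04 for all features and 0.11 for the 692 features with 1 gene. RNA extracted from whole samples cannot tell fewer cells of a type from less RNA per cell.

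**Figure D1:**
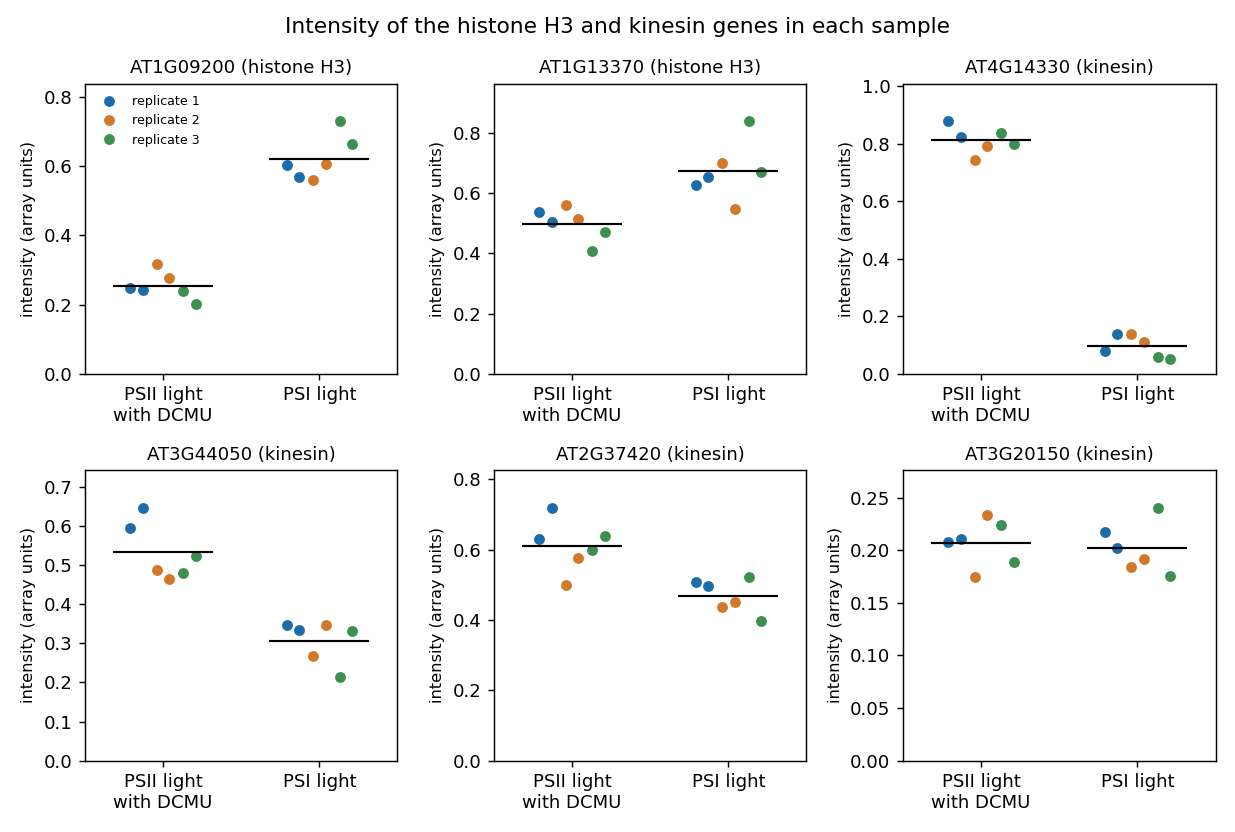
Intensity (array units, linear axis from 0) of each gene in the 12 samples, with PSII light with DCMU on the left and PSI light on the right of each panel; colours mark the pairs of samples averaged to replicates 1, 2 and 3, and black lines are the means of 6 samples. AT1G09200 sits at 0.203 to 0.317 under PSII light with DCMU and at 0.561 to 0.729 under PSI light, and AT4G14330 at 0.744 to 0.878 against 0.0509 to 0.139.

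AT1G09200 encodes histone H3.1, the form of H3 that is laid down with newly replicated DNA. Its intensity was 0.249, 0.242, 0.317, 0.277, 0.240 and 0.203 in PSII_DCMU samples 1 to 6, against 0.604, 0.568, 0.561, 0.605, 0.729 and 0.665 in PSI samples 1 to 6. The highest sample under PSII light with DCMU lay well below the lowest under PSI light. The mean was 0.255 ± 0.0384 under PSII light with DCMU and 0.622 ± 0.0651 under PSI light (SD, n = 3 each). The log2 change was -1.30 ± 0.139 (SE, 95% interval -1.65 to -0.94, adjusted p = 0.0024, limma), that is 0.407 of the PSI level. By size of the fall it ranked 11 among the 692 features with 1 gene, and 12.8% of all features had a larger change in either direction. Within pair numbers the log2 differences were -1.26, -0.98 and -1.66, all downward. The direction and the call held under all 15 alternatives.

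AT1G13370 is another gene of the histone H3 family. Its intensity was 0.537, 0.502, 0.560, 0.513, 0.408 and 0.470 in PSII_DCMU samples 1 to 6, against 0.625, 0.652, 0.699, 0.547, 0.837 and 0.671 in PSI samples 1 to 6. Single samples of the groups overlapped slightly, since PSII_DCMU sample 3 (0.560) exceeded PSI sample 4 (0.547), while the averaged replicates did not. The mean was 0.498 ± 0.0520 under PSII light with DCMU and 0.672 ± 0.0713 under PSI light (SD, n = 3 each), a log2 change of -0.43 ± 0.117 (SE, 95% interval -0.73 to -0.12, adjusted p = 0.0348, limma). The call was lost with the replicate number as a block (adjusted p = 0.108 with the block), and it ended under 9 of 15 alternatives with adjusted p up to 0.108. Leaving out PSII_DCMU replicate 1, 2 or 3 gave adjusted p of 0.0796, 0.0599 and 0.0824 (limma), and leaving out PSI replicate 1 or 3 gave 0.0693 and 0.0705.

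Both H3 genes were highest in PSI replicate 3 and lowest in PSII_DCMU replicate 3. AT1G09200 changed more than AT1G13370. The log2 ratio of AT1G09200 to AT1G13370 was -1.08 to -0.86 in the PSII_DCMU replicates and -0.12 to -0.09 in the PSI replicates, a change of -0.87 ± 0.0662 (SE, n = 3). These ranges did not overlap, and how often those of other pairs of features overlap was not counted. The exact two-sided permutation p was 0.1, the smallest that 3 against 3 replicates can give, and it was also 0.1 after adjustment over the 7 pairs of genes compared. With place taken out the change of the ratio was -0.56 (exact permutation p = 0.2).

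One more H3 gene, AT5G65360, also annotated as histone 3.1, was measured by a feature of its own and was no member. It was listed at 0 in all 6 PSII_DCMU samples and in 5 of 6 PSI samples, with 0.0326 in PSI sample 5. All 12 values lay under the floor of 0.0431 set for low intensities, so nothing about its level or change was measured. H3 genes are close in sequence and no probe sequence was examined, so a signal given to 1 H3 gene may include RNA of others.

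AT4G14330 encodes a kinesin of the phragmoplast, known as PAKRP2, which is associated with the transport of vesicles to the forming cell plate. Its intensity was 0.878, 0.823, 0.744, 0.793, 0.838 and 0.799 in PSII_DCMU samples 1 to 6, against 0.0799, 0.139, 0.137, 0.112, 0.0597 and 0.0509 in PSI samples 1 to 6. Every sample under PSII light with DCMU was several times brighter than every PSI sample. The mean was 0.813 ± 0.0414 under PSII light with DCMU and 0.0966 ± 0.0365 under PSI light (SD, n = 3 each). The log2 change was 3.18 ± 0.327 (SE, 95% interval 2.33 to 4.02, adjusted p = 0.00213, limma), and 0.262% of all features changed more.

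The size of that rise rested on dim values. All PSI samples of AT4G14330 lay above the floor of 0.0431, and PSI replicate 3 (mean 0.0553) came closest to it, against 0.110 and 0.125 in PSI replicates 1 and 2. Without PSI replicate 3 the log2 change was 2.83 ± 0.0965. With the floor at 0.139, which replaces 5 of the 6 PSI values, the log2 change was 2.54, a lower value set by that floor. It was 2.03 with 0.139 as a pseudocount, and 1.91 ± 0.215 with place taken out, a correction explained below. The call held under all 15 alternatives.

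AT3G44050 encodes a kinesin of the kinesin-12 family, whose best known members work in the phragmoplast and in placing the division plane. Its intensity was 0.596, 0.646, 0.488, 0.465, 0.479 and 0.523 in PSII_DCMU samples 1 to 6, against 0.348, 0.334, 0.268, 0.346, 0.215 and 0.333 in PSI samples 1 to 6. No sample of the groups overlapped, and PSII_DCMU replicate 1 stood above the other two of its group. The mean was 0.533 ± 0.0772 under PSII light with DCMU and 0.307 ± 0.0335 under PSI light (SD, n = 3 each). The log2 change was 0.80 ± 0.143 (SE, 95% interval 0.43 to 1.17, adjusted p = 0.0101, limma), 1.75 times the PSI level. After quantile normalization it was 0.36 ± 0.125 and no longer passed (adjusted p = 0.0641, within 0.00392 to 0.183 over the alternatives).

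AT2G37420 encodes a kinesin of the kinesin-5 family, motors that slide microtubules of the spindle and phragmoplast apart. Its intensity was 0.631, 0.718, 0.499, 0.576, 0.598 and 0.640 in PSII_DCMU samples 1 to 6, against 0.507, 0.497, 0.437, 0.450, 0.522 and 0.397 in PSI samples 1 to 6. Single samples overlapped, as PSII_DCMU sample 3 (0.499) lay below PSI samples 1 and 5. The mean was 0.610 ± 0.0690 under PSII light with DCMU and 0.469 ± 0.0302 under PSI light (SD, n = 3 each), a log2 change of 0.38 ± 0.105 (SE, 95% interval 0.11 to 0.65, adjusted p = 0.0358, limma). The call ended under 9 of 15 alternatives, with adjusted p up to 0.441. Among them were quantile normalization (0.10 ± 0.0929) and centring each sample on its median (0.16 ± 0.118). Leaving out PSII_DCMU replicate 1 or 3 gave adjusted p of 0.0929 and 0.105 (limma), and leaving out PSI replicate 2 or 3 gave 0.0881 and 0.0898.

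AT3G20150, a second gene of the kinesin-12 family, was dim in both groups, brighter than 10.4% of all features. Its intensity was 0.208, 0.211, 0.175, 0.234, 0.224 and 0.189 in PSII_DCMU samples 1 to 6, against 0.217, 0.202, 0.184, 0.192, 0.240 and 0.176 in PSI samples 1 to 6. The groups overlapped almost fully. The mean was 0.207 ± 0.00268 under PSII light with DCMU and 0.202 ± 0.0121 under PSI light (SD, n = 3 each). Its log2 change was 0.04 ± 0.056 (SE, adjusted p = 0.624, limma), and the 95% interval of -0.11 to 0.18 corresponds to 0.929 to 1.14 times the PSI level. That interval holds for the intensities as deposited only. After quantile normalization the log2 change was -0.62 ± 0.131 (adjusted p = 0.0152), and with each sample centred on its median it was -0.18 ± 0.113 (adjusted p = 0.204).

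**Figure D2:**
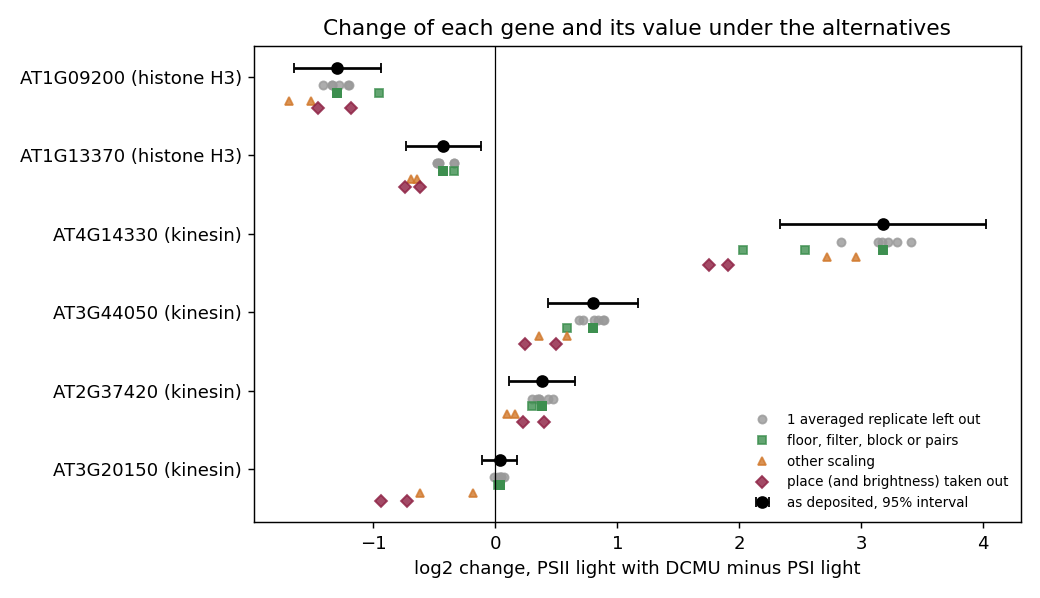
Log2 change of each gene, PSII light with DCMU minus PSI light, with black points and 95% intervals for the intensities as deposited (n = 3 averaged replicates per group) and coloured marks for the 15 alternatives. AT1G09200 keeps values between -1.69 and -0.95 and AT4G14330 values between 1.75 and 3.41, while AT3G20150 runs from -0.94 to 0.07 around its deposited 0.04.

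The log2 changes of the kinesin genes differed in size in the deposited intensities. The log2 ratio of AT4G14330 to AT3G44050 was 0.46 to 0.71 in the PSII_DCMU replicates and -2.28 to -1.29 in the PSI replicates, so AT4G14330 rose by 2.37 ± 0.297 more (SE, n = 3). Against AT2G37420 the difference was 2.80 ± 0.358 and against AT3G20150 it was 3.14 ± 0.386. The smaller differences were 0.77 ± 0.148 for AT3G44050 over AT3G20150, the 2 kinesin-12 genes, 0.43 ± 0.0913 for AT3G44050 over AT2G37420, and 0.34 ± 0.0884 for AT2G37420 over AT3G20150. In each of the 6 kinesin pairs the replicate ratios of the groups did not overlap, and each exact two-sided permutation p was 0.1, the smallest possible, also when adjusted over the 7 pairs. A full separation of 3 against 3 replicates always gives that p, so the p adds nothing to it. The pairs share the same 4 genes, and how often other pairs of features separate was not counted. Averaged replicates of single features did not overlap for 60.7% of all features. As deposited, the order of the changes was AT4G14330, AT3G44050, AT2G37420 and AT3G20150, and no exact test of neighbours in it could go below 0.1. With place taken out, AT3G44050 exceeded AT2G37420 by 0.10 (exact permutation p = 0.4), and by 0.01 with brightness taken out as well (exact permutation p = 0.9), so these neighbours were not separated there. With place alone taken out the excess of AT4G14330 over AT3G44050 was 1.41, that over AT2G37420 1.51, and AT2G37420 exceeded AT3G20150 by 1.12. The log2 ratios are given for how they differ between groups, since features have unknown probe strengths and a ratio does not say which gene had more RNA.

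Centring each sample on its median moved all 6 changes downward by similar amounts, and quantile normalization moved them downward by unequal amounts. As deposited, the median log2 change of all features was 0.04, and it was -0.18 with each sample centred on its median and -0.05 after quantile normalization. The whole table had 909 features called higher and 758 lower as deposited, 783 higher and 1130 lower with centring, and 741 higher and 1046 lower with quantile normalization. Relative to the -0.18 of all features under centring, AT3G20150 (-0.18) sat at the median and AT2G37420 (0.16) above it. Relative to the -0.05 after quantile normalization, AT3G20150 (-0.62) lay below the median and AT2G37420 (0.10) above it. Under both other scalings the 2 H3 genes stayed lower (AT1G09200 -1.51 and -1.69, AT1G13370 -0.64 and -0.69), and AT4G14330 stayed higher (2.96 and 2.72).

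**Figure D3:**
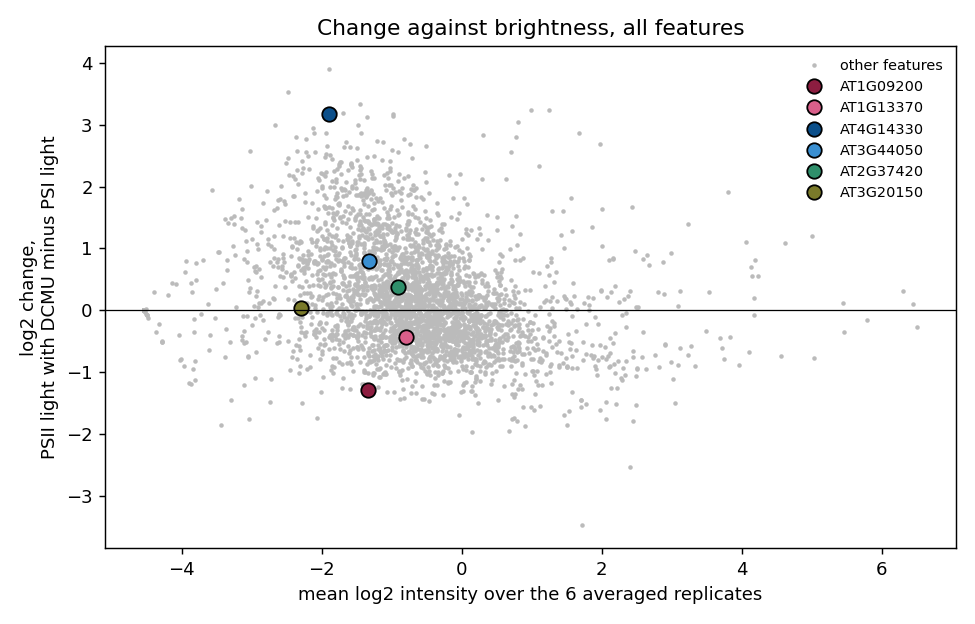
Log2 change, PSII light with DCMU minus PSI light, against the mean log2 intensity over the 6 averaged replicates, for all 3439 features (grey) and the 6 genes (coloured). AT4G14330 at 3.18 lies at the upper edge of the cloud on its dim side, AT1G09200 at -1.30 lies at its lower edge, and the other 4 genes lie within it.

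The genes were placed among all features by brightness and by their order on the array. AT4G14330 was brighter than 15.7% of all features, AT1G09200 than 28.4%, AT3G44050 than 28.9%, AT2G37420 than 42.9% and AT1G13370 than 47.0%. All 6 genes were thus in the dimmer part of the array.

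The order of feature numbers was cut into consecutive runs of equal length, and the place of each gene within its run was noted. AT3G20150, AT4G14330, AT1G13370 and AT1G09200 stood at places 149, 156, 157 and 163, and AT3G44050 and AT2G37420 at places 207 and 224. At places 97 to 192 the median log2 change of all features was 0.42, with 39.6% of features called higher and 8.73% lower. Places within that stretch differed. The median over the 9 to 13 features at a gene's own place was -0.02 for AT1G09200 and 0 for AT1G13370, 1.04 for AT4G14330 and 0.95 for AT3G20150. At places from 193 upward, which hold AT3G44050 and AT2G37420, the median was 0.16, with 30.7% higher and 17.8% lower, and the medians at the own places of AT3G44050 and AT2G37420 were 0.61 and 0.28. AT4G14330 and AT1G13370 are neighbouring features, and their changes had opposite signs.

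**Figure D4:**
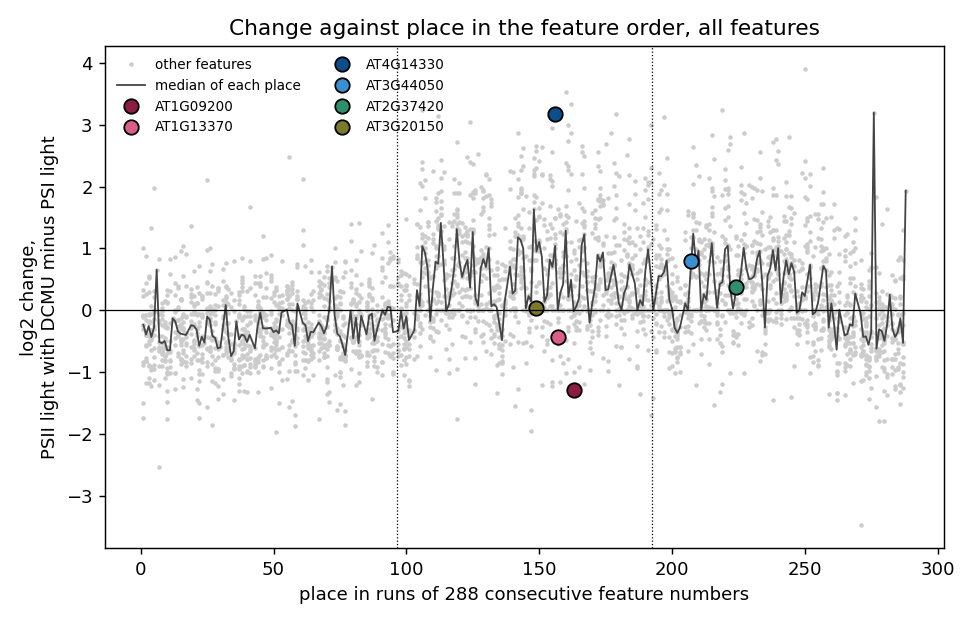
Log2 change, PSII light with DCMU minus PSI light, against the place of a feature in consecutive runs of feature numbers, for all features (grey), the median of each place (line) and the 6 genes (coloured); dotted lines separate places 1 to 96, 97 to 192 and those from 193 upward. The H3 genes lie below the line in the middle stretch, where the median of all features is 0.42, and AT4G14330 lies above it.

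With the median of each place taken out of every averaged replicate, the log2 change was -1.18 ± 0.175 for AT1G09200 and 1.91 ± 0.215 for AT4G14330, both past the threshold (adjusted p = 0.000797 and 0.000213, limma). AT3G44050 stood at 0.50 ± 0.160 and AT2G37420 at 0.40 ± 0.131, and both passed (adjusted p = 0.0299 and 0.0327). AT1G13370 stood at -0.62 ± 0.257 and did not pass (adjusted p = 0.0771). AT3G20150 stood at -0.72 ± 0.218 and passed in the downward direction (adjusted p = 0.0252). With brightness taken out as well, AT3G44050 (0.24 ± 0.134) and AT2G37420 (0.23 ± 0.104) did not pass. AT3G20150 (-0.94 ± 0.255) again passed in the downward direction (adjusted p = 0.0192, limma). Taking place out also called 86 of the 141 features that had no value above the floor in any sample, so calls made with this correction are uncertain. AT3G20150 was also called lower after quantile normalization, as given above.

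Few other genes of the division machinery had a feature of their own. Of 11 lists with 172 distinct genes, 8 lists had no gene measured by a feature of its own, namely the histone chaperones, cytokinesis genes, tubulins, cell cycle genes, DNA replication genes and the markers of meristem, root and pollen. Of 47 listed histone genes 3 were measured, with 0 higher, 2 lower and AT5G65360 under the floor. Of 23 listed kinesin genes 4 were measured, all of them described above. The 1 measured gene of green tissue, the antenna protein gene AT2G34420, had intensities of 8.23 to 11 in the PSII_DCMU samples and 9.80 to 14.1 in the PSI samples. Its change of -0.34 did not pass (adjusted p = 0.0651, limma), and it was brighter than 99.2% of features in these samples. Features paired with several genes or with none may detect more of them and were not searched for these lists, apart from histones and kinesins. The share of dividing cells in the samples was not followed with other genes.

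The genes whose pattern over the 6 averaged replicates came closest to each of the 6, among 634 features with 1 gene that were above the floor in all samples, were found by the root mean square difference of log2 values centred on each feature's mean. AT3G54930 (0.132) and AT1G03810 (0.171) were closest to AT1G09200, with log2 changes of -1.22 and -1.52, at places 76 and 75 beside its 163. At places 1 to 96 the median log2 change of all features was -0.31, with 40.5% of features called lower. AT5G01960 (0.0924) and AT1G28150 (0.108) were closest to AT1G13370, with changes of -0.35 and -0.62, and stood at places 158 and 169 beside its 157. AT3G56330 (0.402) and AT1G75260 (0.426) were closest to AT4G14330, with changes of 3.34 and 2.52, at places 162 and 183 beside its 156. Their root mean square differences were larger than for the other genes. The measure is not scaled to the size of a change, so they do not show a looser likeness. AT3G24190 (0.0884) and AT5G27560 (0.0991) were closest to AT3G44050, with changes of 0.82 and 0.80, at places 248 and 190 beside its 207. AT2G35450 (0.0362) and AT4G13200 (0.0523) were closest to AT2G37420, with changes of 0.35 and 0.36, at places 57 and 274 beside its 224. AT5G06790 (0.0611) and AT1G54520 (0.0636) were closest to AT3G20150, with changes of 0.09 and 0.08, at places 223 and 184 beside its 149. Similar log2 changes of a gene and its nearest genes follow from how the latter were picked. None of these nearest genes was in the histone or kinesin lists.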

How the data were processed

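Total RNA of 12 samples was measured on an expression array. The authors deposited 1 intensity per feature and sample on a linear scale; how the deposited intensities were background-corrected or scaled is not given in the sources at hand. Column means lay within 3.25% of their average, which met the rule set for keeping the intensities as deposited. Column medians deviated by up to 11.9% and would not have met it by themselves. Values under the 1st percentile of positive intensities (0.0431; 4.74% of values) were set to it and log2 was taken. The platform's gene table paired 692 features with 1 gene, 870 with several and 1877 with none; 690 of the 692 matched the TAIR10.1 gene table. No coordinates or sequences are given.

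Deviations from group means correlated at 0.379 to 0.656 within sample pairs 1-2, 3-4 and 5-6 and at -0.511 to -0.184 otherwise, so each pair was averaged. Same-numbered averaged replicates correlated across groups at 0.286 to 0.356 and others at -0.329 to 0.00285, so the numbers may pair the replicates, which no label states. The main fit and the exact permutation tests were unpaired. A block on the number was used only among the 15 alternatives, where AT1G13370 lost its call (adjusted p = 0.108, limma). The comparison used lmFit and eBayes of limma 3.58.1 (R 4.3.3; figures with Python 3.11.15 and matplotlib 3.10.9), two-sided, with Benjamini-Hochberg adjustment over 3439 features, and was tested on simulated data. Means ± SD are over linear pair averages without the floor. Ratios of 2 genes were compared with exact permutation tests. The genes, lists and alternatives were chosen with earlier results of these data known. Named genes are the 6 genes, all measured list genes and the 2 closest profiles of each. Features of several genes or none stayed in the fit and the adjustment and were given no gene name.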

Additional observations from a re-analysis of the deposited data

Results flagged for a closer look

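A signal appeared in a feature that was fitted with all others but is none of the 6 genes described. The platform's table pairs it with 3 genes, all in the kinesin list and AT2G37420 among them, so it stands for no single gene. Its intensity was 0.755 to 0.911 (mean 0.825 ± 0.0649) under PSII light with DCMU and 0.107 to 0.259 (mean 0.174 ± 0.0339) under PSI light (SD, n = 3 each), a log2 change of 2.30 ± 0.157 (SE, adjusted p = 0.000808, limma), and 1.55 with place taken out. The feature paired with AT2G37420 alone changed by 0.38 ± 0.105. The difference between the 2 features was not tested, and which RNA the feature with 3 genes detected was not tested. No sample was flagged as standing apart from the other 5 of its group in the 12 sets of 6 values checked. The sets are those of the histone H3 and kinesin genes, and the distance needed for a flag is not given here.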

How the results depend on the processing

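The 15 alternatives gave 1138 to 1913 called features, against 1667. AT1G09200 and AT4G14330 kept their direction and call under all 15, the replicate block included (-1.30 and 3.18). AT1G13370 lost its call with place taken out (-0.62), with place and brightness taken out (-0.74), with all 12 samples and the technical pair as a random block (-0.43) and with the replicate block (-0.43), and stood at -0.48 to -0.34 with 1 replicate left out. AT3G44050 lost it after quantile normalization (0.36) and with place and brightness taken out (0.24). AT2G37420 lost it with dim features left out (0.38), quantile normalization (0.10), median centring (0.16), place and brightness taken out (0.23) and 12 samples (0.38), and stood at 0.30 to 0.47 with 1 replicate left out. AT3G20150 turned to -0.62 (quantile), -0.18 (centring), -0.72 (place) and -0.94 (place and brightness), and was called lower in all of these but centring. It stood at -0.01 to 0.07 with 1 replicate left out, below 0 only without PSI replicate 2. The replicate block changed no other call of the 6 genes. The causes were not tested. All 7 differences between pairs of genes kept their sign with the higher floor and with each replicate left out, and under the place corrections and quantile normalization, which were added for them after the data were seen. AT3G44050 over AT2G37420 then came to 0.10 (place), 0.01 (place and brightness) and 0.26 (quantile), against 0.43. The background level of the arrays is unknown, which limits folds of dim features such as AT4G14330 under PSI light.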

Other observations

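Of the features that the annotation pairs with several genes and that name no single gene, 7 held at least 1 listed histone or kinesin gene. Among the 5 that held histone genes, 3 were lower under PSII light with DCMU, 1 was higher and 1 did not pass (limma, adjusted over all features). Of all features, 22.0% were lower and 26.4% higher. The 3 log2 changes downward were -0.71, -0.54 and -0.49, and the rise was 0.65 ± 0.128. The feature that rose was paired with 2 genes, and only 1 of them was a listed histone gene. Which of the 2 it detected was not tested. The other histone features were paired with listed histone genes only. With place taken out, the 3 downward changes stood, in the same order, at -0.91, -0.39 and -0.01. The rise then stood at 0.76, and the histone feature that did not pass at 0.51, against 0.35 as deposited. Of the 2 features that held kinesin genes, 1 was higher, against 26.4% of all features, and it is the feature with 3 genes flagged above. The other (0.49 ± 0.186, adjusted p = 0.0828, limma) did not pass, and it stood at -0.85 with place taken out. These features were looked up after the values of the 6 genes had been seen.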
